A study of Mus musculus with 24 samples.

Results

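The hepatic mRNA levels of 10 genes were examined that act in the uptake of fatty acids, in the lipid droplet or in the response to fasting, and that are known targets of the nuclear receptor PPARalpha. They were taken by name: Cd36, Fabp1, Pdk4, Angptl4, Plin2, Plin5, Vnn1, Cidec, Acot1 and Acot2. No measured value entered the choice rule, though the genes were chosen with earlier results of these data known. They make up 10 of the 25746 genes listed in the count files, and all 10 were among the 12330 genes with enough reads to be tested.

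The study asked how the liver responds when mice lack the major urinary proteins (Mup), small lipocalins that the liver makes in bulk and that leave the body in urine. On a C57BL/6N background, CRISPR/Cas9 had removed the whole Mup gene cluster. The line descended from 1 male founder, so all KO mice carry the same edited allele, and KO and WT mice came from a heterozygous intercross. There were 4 groups of 6 mice aged 12 weeks: male and female mice with the intact cluster (mWT and fWT) and male and female mice homozygous for the deletion (mKO and fKO). No drug treatment or special diet was part of the comparison. All mice, controls included, ate standard chow, fasted briefly and were anaesthetised with isoflurane for imaging before they were killed, which bears on genes of the fasting response. Each library is the liver of 1 mouse.

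As background, PPARalpha is a receptor for fatty acids and their derivatives. Together with the retinoid X receptor RXR it binds DNA at direct repeats and switches on genes for the uptake, storage and oxidation of fatty acids. In the liver it is best known for the change to fat as fuel during fasting. CD36 is a membrane protein that takes up fatty acids, and FABP1 carries them inside the hepatocyte. PLIN2, PLIN5 and CIDEC sit on the lipid droplet. PDK4 shuts the entry of pyruvate into the citric acid cycle, ANGPTL4 is a secreted inhibitor of lipoprotein lipase, VNN1 releases pantothenate, the precursor of coenzyme A, and ACOT1 and ACOT2 split fatty acyl-CoA in the cytosol and in the mitochondria.

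The libraries held 15361901 to 26261394 counted reads. The genotype labels held in every library: the summed level of 22 Mup genes was 17019 to 37372 CPM (counts scaled to library size) in mWT mice and 3393 to 5256 CPM in fWT mice, and at most 0.457 CPM in KO mice. Hepatocyte markers (6 genes, albumin among them) summed to between 87316 and 143745 CPM over all libraries, and 1 of the 6, Ttr, passed the test used for the members between KO and WT males (log2 fold change 0.30, unadjusted p 0.00427, adjusted p 0.212 in edgeR). Of 4 erythroid markers 1, Hbb-bt, passed in the direct test of the male against the female KO effect (0.81, unadjusted p 0.00864, adjusted p 0.816 in edgeR). In KO mice Ttr was lower in females than in males (-0.42, adjusted p 0.00342 in edgeR), and the other hepatocyte markers did not pass. The 4 erythroid markers were lower in KO females too (-0.91 to -3.15, adjusted p of at most 0.00339 in edgeR). Of these, Alas2 was also lower in WT females (-3.44, adjusted p 1.44e-13 in edgeR), and Hba-a1, Hbb-bs and Hbb-bt did not pass there. The part of these markers in the results on the members was not tested. Of 6 adipocyte markers, Lep was at 0 in every library, Adipoq and Retn were at 0 in every mWT library, and the 6 together reached at most 14.9 CPM. Kupffer cell and macrophage markers (6 genes) summed to 66.9 to 133 CPM in mWT, 65.1 to 181 CPM in mKO, 120 to 225 CPM in fWT and 101 to 183 CPM in fKO mice, and none of the 6 passed the test between KO and WT mice of either sex. In WT mice Clec4f, Cd5l, Vsig4 and Cd68 were higher in females (adjusted p of at most 0.0223 in edgeR), and Adgre1 and Marco did not pass. Of the endothelial markers, Stab2 and Clec4g were higher in WT females (adjusted p 0.0485 and 0.0171 in edgeR), and Pecam1, Kdr and Lyve1 did not pass. Cd36 is also made by macrophages and endothelial cells, and their part in its level was not tested.

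The sequence 5′ of the RefSeq start of transcription is shown for the 2 members that passed the test in KO males, Cd36 and Plin2, and for Fabp1. Of the 8 members searched, Fabp1 was the only one with a match to the full binding motif. The sequences are those of RefSeq on the mouse build GRCm38.p6, 5′ to 3′ on the strand of the gene, and leave out any base in a GENCODE exon of the gene. They lie at chr5:17835897-17836146 (minus strand), chr4:86670061-86670309 (minus strand) and chr6:71199629-71199826 (plus strand). Capitals mark the motif AGGTCA on the opposite strand, and in Fabp1 the longer repeat that holds it.
Cd36: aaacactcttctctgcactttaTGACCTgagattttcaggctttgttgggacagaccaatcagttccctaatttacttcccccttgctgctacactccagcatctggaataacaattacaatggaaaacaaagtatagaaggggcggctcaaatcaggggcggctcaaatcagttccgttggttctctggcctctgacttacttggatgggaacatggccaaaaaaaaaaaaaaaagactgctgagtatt
Plin2: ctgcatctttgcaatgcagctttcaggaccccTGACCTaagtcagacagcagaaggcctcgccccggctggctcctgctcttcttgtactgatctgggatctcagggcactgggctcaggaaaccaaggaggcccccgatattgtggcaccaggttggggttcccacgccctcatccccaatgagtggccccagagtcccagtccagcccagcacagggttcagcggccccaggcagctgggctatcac
Fabp1: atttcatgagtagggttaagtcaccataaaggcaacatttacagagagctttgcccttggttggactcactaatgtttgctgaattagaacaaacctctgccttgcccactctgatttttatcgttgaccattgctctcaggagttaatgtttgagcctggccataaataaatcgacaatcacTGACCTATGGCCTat

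The windows searched ran from 250 bases before to 50 bases after the RefSeq start, on both strands, and 8 members had at least 1 window (10 windows in all). Angptl4 and Vnn1 had no window and were not searched. The direct repeat 1 (AGGNCA, then AGGNCA again after 1 base of any kind, with N for any base), the form that PPARalpha and RXR are known to bind, matched in 1 of these 8 members. The match was AGGCCATAGGTCA in Fabp1, from base -67 to base -55 on the opposite strand, and 0.381% of 32851 promoter windows held the repeat. The shorter AGGTCA, which is the right-hand part of the Fabp1 match, was found in 4 members, Cd36 (from base -228), Plin2 (from base -218), Fabp1 (from bases -67 and -9) and Plin5 (from base -170 in the window of 1 start and base 13 in that of another), beside 16.3% of all windows. TATAAA matched in 1 member, Fabp1 (from base -30), beside 13.6% of all windows. These are matches of letters in a short window and say nothing of binding. The Cd36 start used by RefSeq lies inside the gene as GENCODE draws it, and its first 30 transcribed bases were in no GENCODE transcript.

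Acot1 and Acot2 are neighbours on chromosome 12, at chr12:84009490-84018371 and chr12:83987861-83993873 in GRCm38, with 15616 bases between them and both on the plus strand. Their coding sequences were identical at 95.3% of 1236 aligned bases. The longest stretch that both genes share without a difference was 273 bases, coding bases 887 to 1159 of Acot1 and 1010 to 1282 of Acot2. Its first 60 bases are shown because a read of 100 bases from inside this stretch cannot be given to either gene.
Acot1 and Acot2: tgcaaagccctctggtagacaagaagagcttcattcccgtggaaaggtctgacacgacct

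Of all 100-base windows in Acot1 transcripts, 12.4% also occurred in transcripts of another gene, most of them (359 windows) in Acot2. Acot3 and 4732463B04Rik held 104 each, Acot5 held 73, Acot6 held 39 and Acot4 held 9. For Acot2 the share was 17.1%, all with Acot1. Plin2 shared 0.115% with Gm12551, and the other 7 members shared none. How reads with more than 1 match were treated is not given in the sources used here, so the counts of Acot1 and Acot2 are less certain than those of the other members. No annotated gene overlapped a member.

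Levels of different genes were compared per kilobase of exon. In mWT mice Fabp1, at chr6:71199827-71205023, was far above the rest with 6983 ± 1633 CPM per kb (SD, n = 6), and Plin2, at chr4:86648386-86670060, followed with 75.7 ± 23.7 CPM per kb. Angptl4 stood at 32.0 ± 8.84, Plin5 at 13.9 ± 7.01, Vnn1 at 11.97 ± 6.23 and Cd36 at 7.76 ± 3.54 CPM per kb. The lowest levels were those of Acot1 (2.17 ± 1.11 CPM per kb), Pdk4 (1.72 ± 0.653), Cidec (0.704 ± 0.297) and Acot2 (0.495 ± 0.238). Fabp1 and Plin2 did not overlap with the next gene in the order in any of the 4 groups, whereas neighbours from Angptl4 down to Cd36, and from Acot1 down to Acot2, overlapped in mWT mice. Depth was thin for 2 members: the counts of Cidec ranged from 2 to 51 and those of Acot2 from 11 to 104 reads per library.

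**Figure D1:**
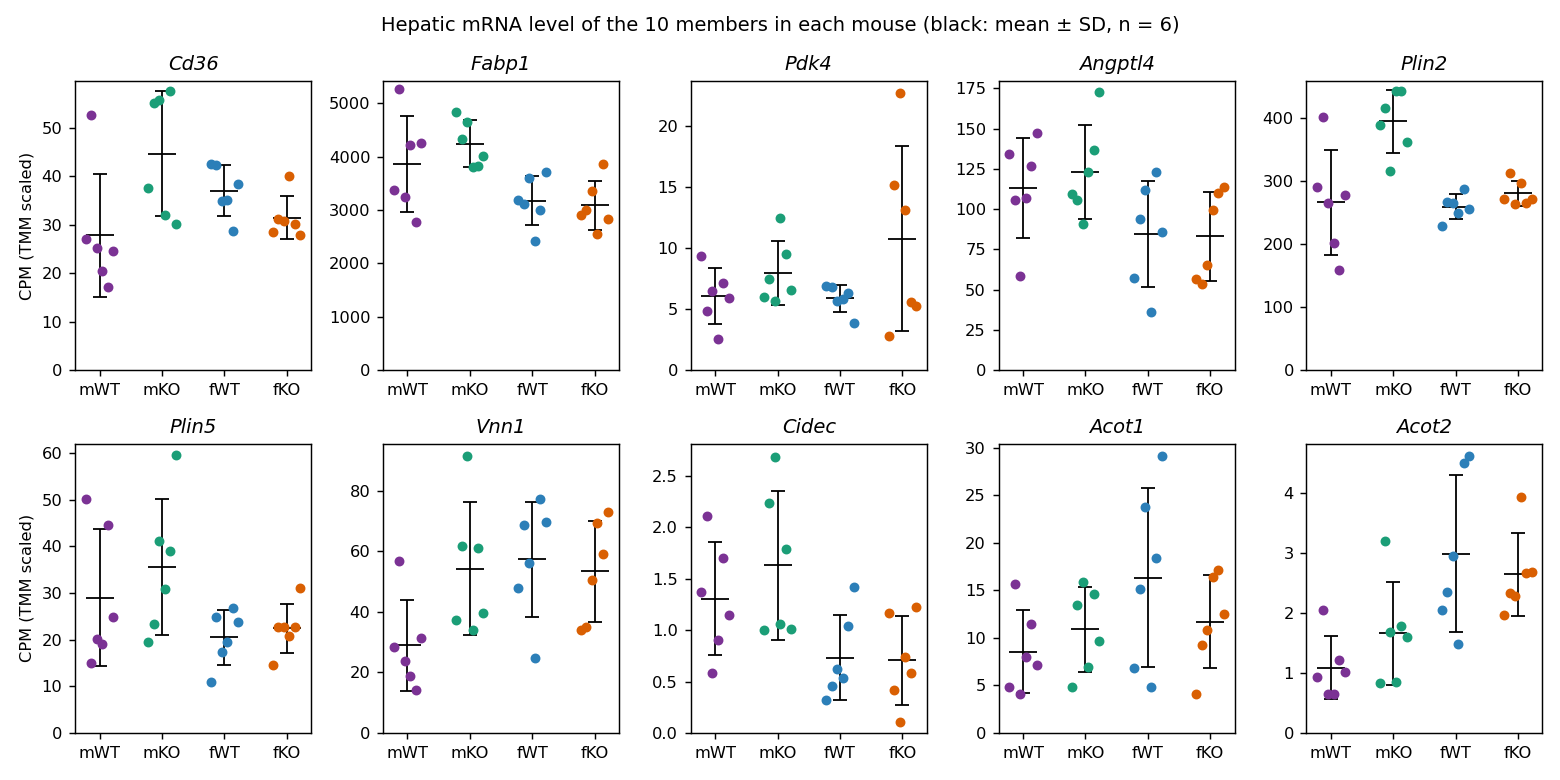
Level of each member in each of the 24 mice, in CPM after TMM scaling, each panel on its own scale from 0 (points: mice, black bars: mean ± SD of 6 mice). Plin2 was at 316 to 442 CPM in mKO mice and at 264 to 313 CPM in fKO mice, and 1 mWT mouse lay above the other 5 for Cd36, at 52.7 CPM.

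In male mice, 2 of the 10 members passed the test between KO and WT mice, and both were higher in KO: the lipid droplet protein gene Plin2 by 1.48-fold and the fatty acid transporter gene Cd36 by 1.61-fold. A gene passed where its unadjusted p was under 0.01 by edgeR (quasi-likelihood test), a limit taken from the study's methods that 3.52% of all genes met (1.8% as higher in KO). For all 10 members the estimated log2 fold change was above 0, from 0.12 to 0.91, with a median of 0.37 beside -0.0022 over all genes tested. The other 8 members did not pass. In these bulk samples more RNA per cell and more cells of a type cannot be told apart.

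Plin2 encodes the main coat protein of lipid droplets in hepatocytes and lies on chromosome 4, which also carries the deleted cluster. In mWT mice its lowest, median and highest levels were 158, 272 and 401 CPM, and those of mKO mice 316, 403 and 442 CPM. All 6 mKO mice were above the mWT median and 3 were above every mWT mouse, so the groups overlapped. The log2 fold change was 0.57 (SE 0.139, 95% interval 0.28 to 0.85), with an unadjusted p of 0.000381 and an adjusted p of 0.101 in edgeR. An exact permutation test of the CPM values gave p = 0.0108 (two-sided, n = 6 per group).

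Cd36, at chr5:17781690-17888801, ranged from 17.1 over a median of 24.9 to 52.7 CPM in mWT mice and from 30.2 over 46.4 to 57.6 CPM in mKO mice. Here again 6 of 6 mKO mice were above the mWT median and 3 above every mWT mouse. Of the mKO mice, 3 lay at 30.2, 32.1 and 37.5 CPM and the other 3 at 55.2, 55.7 and 57.6 CPM. The log2 fold change was 0.68 (SE 0.216, 95% interval 0.24 to 1.13), with an unadjusted p of 0.00444 and an adjusted p of 0.215 in edgeR (exact permutation test p = 0.0325, two-sided). Neither Plin2 nor Cd36 had an adjusted p under 0.05 in edgeR, as 0.211% of all genes had. DESeq2 put both under it, Plin2 at 0.0131 and Cd36 at 0.0489, beside 139 of the 12330 genes tested.

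Vnn1, which encodes the pantetheinase vanin-1 and lies at chr10:23894688-23905343, had the largest estimate of the 10 members. Its levels were 14.3, 26.1 and 56.9 CPM (lowest, median and highest) in mWT and 34.0, 50.3 and 91.6 CPM in mKO mice. All 6 mKO mice were above the mWT median. With a log2 fold change of 0.91 (SE 0.331), an unadjusted p of 0.0124 and an adjusted p of 0.302 in edgeR it did not pass, although DESeq2 gave it an unadjusted p of 0.00663, and it passed in edgeR when mWT 2, mKO 1, mKO 4 or fWT 4 was left out (p of at most 0.00918).

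For the remaining 7 members the intervals of the male difference included 0. Acot2 had a log2 fold change of 0.62 (95% interval -0.11 to 1.35), Pdk4 of 0.40, Acot1 of 0.35, Cidec of 0.33 and Plin5 of 0.29. Fabp1, the most abundant member, had an estimate of 0.14 with an interval of -0.13 to 0.40. Angptl4 had the smallest, 0.12, and its interval ran from -0.45 to 0.69. For Acot1 the interval reached from -0.57 to 1.27.

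**Figure D2:**
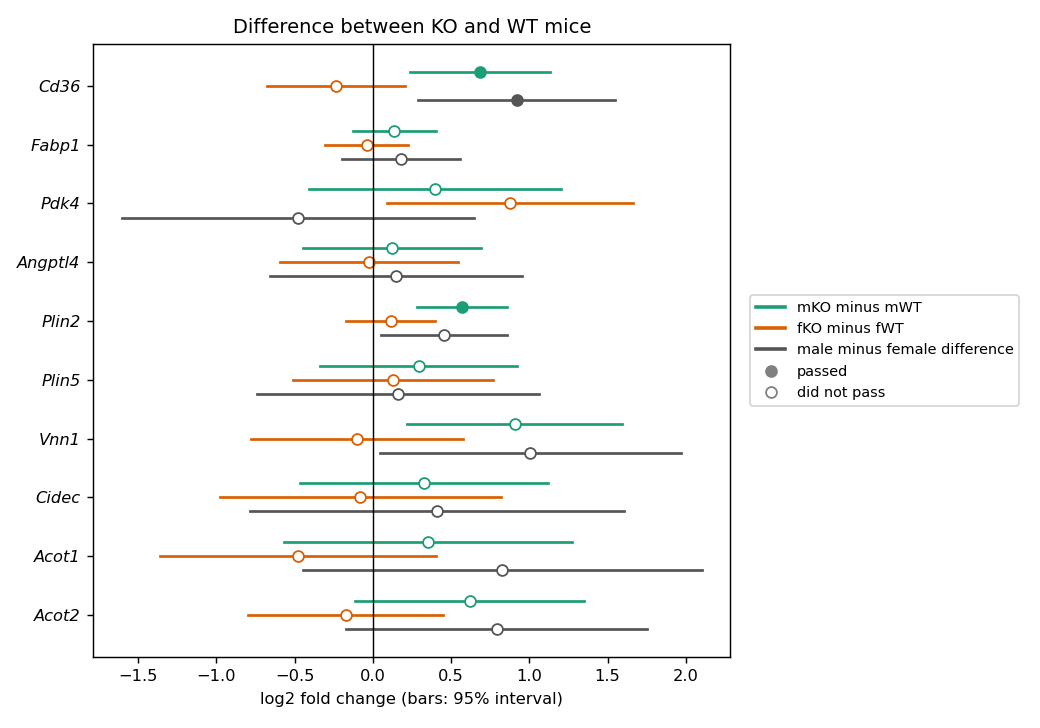
Log2 fold change between KO and WT mice for each member in males, in females, and the male minus the female difference (points: estimates, bars: 95% intervals, filled points: unadjusted p under 0.01). All 10 male estimates lie right of 0, from 0.12 to 0.91, and 3 of the 10 female estimates do.

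The mouse mWT 2 stood apart from the other males with an intact cluster. It had the highest level of its group for 7 of the 10 members (Cd36, Fabp1, Plin2, Vnn1, Cidec, Acot1 and Acot2) and the lowest for Plin5 (15.1 CPM against 19.1 to 50.1 CPM in the others). Its Cd36 level of 52.7 CPM compares with 27.2 CPM in the next mouse, and its Vnn1 level of 56.9 CPM with 31.4 CPM. Without this mouse the male log2 fold change of Cd36 was 0.97, that of Plin2 0.72 and that of Vnn1 1.22, and 3 members passed in place of 2. Cd36 then also passed in both comparisons of females with males (0.70 in WT and -0.51 in KO mice). In the other direction Cd36 did not pass when any of 7 single males was left out (mWT mice 3, 4, 5 and 6 and mKO mice 2, 3 and 5), with p of at most 0.0138 in edgeR. Plin2 passed in all 24 fits with 1 mouse left out, with p of at most 0.00148.

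In female mice, none of the 10 members passed between KO and WT mice by edgeR, beside 0.868% of all genes, and none by DESeq2. By either tool, with all 4 groups in 1 fit, 1 member had an unadjusted p under 0.05, beside 4.87% of all genes in edgeR. This was Pdk4, the kinase that holds back glucose oxidation in fasting, at chr6:5483351-5496309. Its levels were 3.82, 6.08 and 6.86 CPM (lowest, median and highest) in fWT and 2.76, 9.35 and 22.6 CPM in fKO mice. The fKO mice spread more widely than any other group, with 3 mice at 13.1, 15.1 and 22.6 CPM above every fWT mouse and 1 mouse, at 2.76 CPM, below every one. The log2 fold change of Pdk4 was 0.87 (SE 0.379), with an unadjusted p of 0.0308 and an adjusted p of 0.929 in edgeR. Without the mouse fKO 1, its lowest, the estimate was 1.07 and the unadjusted p 0.00428, so that Pdk4 passed.

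The other 9 female estimates lay between -0.48 and 0.13 on the log2 scale. Plin2 was at 228, 260 and 288 CPM in fWT and at 264, 271 and 313 CPM in fKO mice, a log2 fold change of 0.11 with a 95% interval of -0.17 to 0.40. All 6 fKO mice were above the fWT median. Cd36 was at 28.8, 36.8 and 42.6 CPM in fWT and at 27.9, 30.5 and 40.1 CPM in fKO mice. Its log2 fold change was -0.24, with an interval of -0.68 to 0.21, and 5 of 6 fKO mice lay below the fWT median. The unadjusted p of Cd36 was 0.282 in edgeR. It depended on the fit: over 8 alternative settings with all mice kept, it ranged from 0.0401 to 0.297 (edgeR or DESeq2). Over the 10 members the median female estimate was -0.061, with 3 members above 0 and 7 below.

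The difference between the male and the female effect was tested directly. It passed for 1 of the 10 members, Cd36, beside 1.16% of all genes. The KO effect on Cd36 was higher in males by 0.92 on the log2 scale (SE 0.304, 95% interval 0.29 to 1.55), with an unadjusted p of 0.00616 and an adjusted p of 0.816 in edgeR. For Vnn1 the difference was 1.01 (unadjusted p 0.0413) and for Plin2 0.46 (unadjusted p 0.0285), and these did not pass. At an unadjusted p under 0.05 there were 3 members, beside 5.99% of all genes. The call for Cd36 was lost in 12 of the 24 fits with 1 mouse left out (mWT 3, 4, 5 or 6, mKO 2, 3 or 5, fWT 1 or 2, or fKO 1, 5 or 6), where the difference was at least 0.81, whereas without mWT 2 Cd36, Plin2 and Vnn1 all passed. For Pdk4 the difference was -0.48 with an interval of -1.60 to 0.65, so its estimates in the 2 sexes were not shown to differ.

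Females were also compared with males of the same genotype. In WT mice, 2 of 10 members passed at an adjusted p under 0.05, beside 17.3% of all genes, and both were higher in females (8.82% of all genes): the mitochondrial thioesterase gene Acot2 and Vnn1. Acot2 was at 0.645, 0.977 and 2.05 CPM in mWT and at 1.48, 2.65 and 4.62 CPM in fWT mice. All 6 fWT mice were above the mWT median and 4 above every mWT mouse. The log2 difference, female minus male, was 1.46 (SE 0.338), with an adjusted p of 0.0033 in edgeR. Vnn1, at 24.8, 62.3 and 77.1 CPM in fWT mice, differed by 0.99 (SE 0.331, adjusted p 0.0442 in edgeR), and this call was lost in 13 of the 24 fits with 1 mouse left out (mWT 1, 3, 4, 5 or 6, mKO 2 or 5, fWT 1, 2, 3, 5 or 6, or fKO 3), at log2 differences of 0.85 or more. Acot1 had an estimate of 0.94 but an adjusted p of 0.148, with the limit on its reads given above. Acot3, which shares 104 windows with Acot1, was at 128 CPM in fWT and 7.66 CPM in mWT mice. Its part in the Acot1 estimate was not tested.

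In KO mice, 3 of 10 members passed, beside 14.4% of all genes, and all 3 were lower in females (7.26% of all genes): Fabp1, Plin2 and Cidec. For Plin2 the 2 groups did not overlap, since the highest fKO mouse (313 CPM) lay just below the lowest mKO mouse (316 CPM), and 7.26% of all genes did not overlap between these groups. Its log2 difference, female minus male, was -0.49 (SE 0.139, adjusted p 0.0165 in edgeR), beside -0.04 in WT mice. Fabp1 was at 2544, 2953 and 3866 CPM in fKO and at 3803, 4178 and 4843 CPM in mKO mice, which is a log2 difference of -0.46 (SE 0.130, adjusted p 0.0163 in edgeR), and 5 of 6 fKO mice lay below every mKO mouse. In WT mice the estimate for Fabp1 was -0.28 (adjusted p 0.137). Cidec, at 0.106, 0.661 and 1.23 CPM in fKO and 0.998, 1.42 and 2.69 CPM in mKO mice, differed by -1.23 (SE 0.405, adjusted p 0.0392 in edgeR). The lowest fKO value of Cidec came from 2 reads, and its call was lost in 7 fits with 1 mouse left out (mKO 2, 3 or 5, or fKO 2, 3, 4 or 5), at differences from -1.02 to -1.25. Without mKO 2, Acot2 passed too, as higher in females (0.99). The comparisons of KO with WT mice and of females with males share libraries, so their values are not independent of each other.

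**Figure D3:**
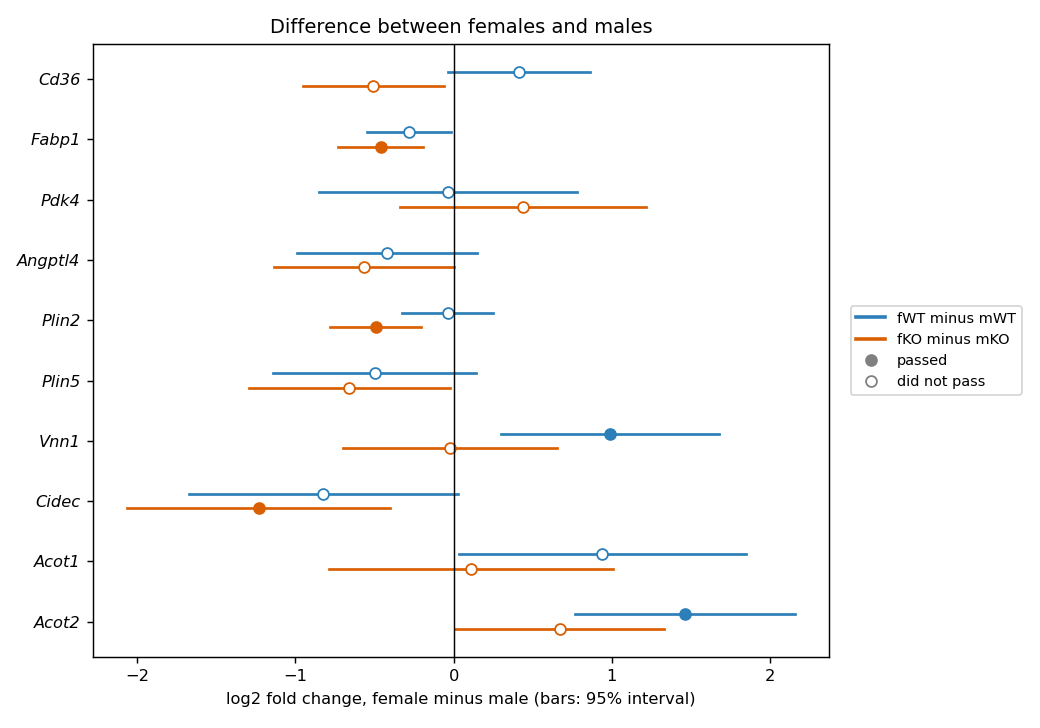
Log2 difference between females and males for each member, in WT mice and in KO mice (points: estimates, bars: 95% intervals, filled points: adjusted p under 0.05). Acot2 and Vnn1 were higher in females among WT mice, and Fabp1, Plin2 and Cidec were lower in females among KO mice, with estimates from 1.46 for Acot2 to -1.23 for Cidec.

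Mice of the same group differed in these genes, and the differences were compared between members after the group means had been removed (log2 of CPM + 2, 24 mice, 45 pairs, 100000 permutations within groups, two-sided). In 5 pairs the Pearson r had an adjusted p under 0.05, and all 5 were positive. The closest pair was Acot1 and Acot2, with r = 0.80 (permutation p = 8e-05, adjusted p = 0.0036) and rho = 0.85 (adjusted p = 0.0009). Their r was 0.75 to 0.86 in each of the 4 groups and 0.76 without the 2 mice farthest from the median. Since these genes share read sequence, part of a read's count can pass between them, and its part in r was not tested.

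Vnn1 went with Acot2 (r = 0.69, permutation p = 0.00035, adjusted p = 0.00787; rho = 0.71, adjusted p = 0.0051) and with Acot1 (r = 0.68, permutation p = 0.00073, adjusted p = 0.0105; rho = 0.66, adjusted p = 0.0159). Without the 2 farthest mice, r was 0.76 and 0.85. Cidec went with Acot2 (r = 0.65, permutation p = 0.00093, adjusted p = 0.0105; rho = 0.72, adjusted p = 0.0051; 0.72 without the 2 farthest mice), though within fKO mice r was 0.06. Cd36 went with Vnn1 (r = 0.66, permutation p = 0.00195, adjusted p = 0.0175; rho = 0.55, adjusted p = 0.054; 0.61 without the 2 farthest mice). Within males this last r was 0.96 in mWT and 0.88 in mKO mice, and within females -0.09 in fWT and 0.31 in fKO mice. The difference between the sexes was not tested. The fasting genes Pdk4 and Angptl4, and the droplet genes Plin2 and Plin5, were in none of these 5 pairs. Between Plin2 and Plin5 r was -0.26 (permutation p = 0.384, adjusted p = 0.54). Within groups it ran from -0.46 in mWT to 0.85 in fWT mice.

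**Figure D4:**
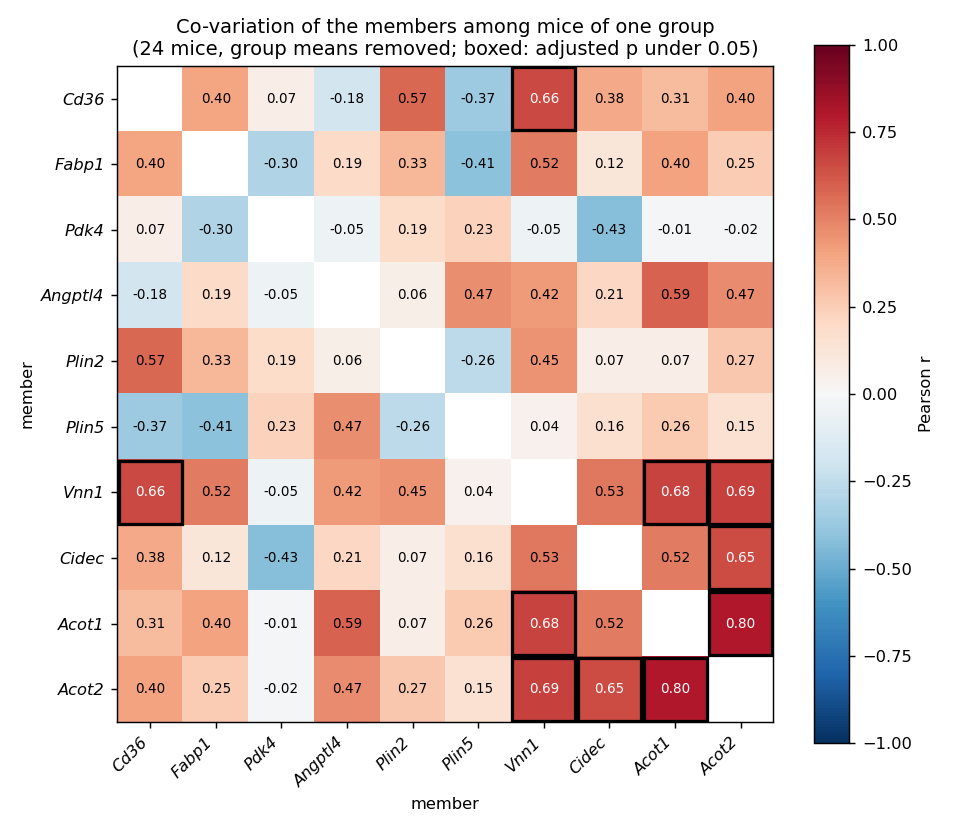
Pearson r between each pair of members over 24 mice after the group means were removed, from -1 (blue) to 1 (red), with the value in each field. The 5 boxed pairs have an adjusted p under 0.05 by permutation within groups, and Vnn1, Acot1 and Acot2 form a triangle with r from 0.68 to 0.80.

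Other genes of the same pathways were read from 6 lists that hold 100 genes, of which 95 were tested. The lists were drawn up with earlier results of these data known, so their counts are a description and no test of enrichment. In males 9 of the 95 passed between KO and WT mice, 7 as higher and 2 as lower in KO, beside 3.52% of all genes. None of the 95 had an adjusted p under 0.05 in edgeR, and 2 had in DESeq2, beside 139 of all 12330 genes tested in DESeq2. In females none of the 95 passed by edgeR or by DESeq2, with 4 and 6 genes at an unadjusted p under 0.05, beside 4.87% of all genes in edgeR. Among 26 fatty acid oxidation targets of PPARalpha, 4 passed in males, all as higher, and 23 of the 26 estimates were above 0, with a median of 0.17 on the log2 scale beside -0.0022 over all genes. In females 9 of these 26 estimates were above 0 and the median was -0.04.

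The 4 oxidation genes were Cyp4a14 and Cyp4a10, the omega-hydroxylases of fatty acids, Acaa1b, a peroxisomal thiolase, and Acadm, the medium-chain acyl-CoA dehydrogenase. Cyp4a14 rose from 46.8 ± 68.2 CPM in mWT to 337 ± 292 CPM in mKO mice (SD, n = 6), with an estimate of 2.85 on the log2 scale (SE 0.779, unadjusted p 0.00154, adjusted p 0.152 in edgeR). Cyp4a10 rose from 136 ± 81.9 to 371 ± 184 CPM, a log2 fold change of 1.45. The estimates for Acaa1b and Acadm were 0.38 and 0.31 on the log2 scale. The adjusted p in edgeR was 0.173 for Cyp4a10, 0.217 for Acaa1b and 0.236 for Acadm. Like Cd36, Cyp4a14 also passed in the direct test of the male against the female effect (3.283, unadjusted p 0.00529, adjusted p 0.816 in edgeR). The Cyp4a genes are near-identical copies in part, so reads may have been counted for the wrong copy.

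In the list of fatty acid uptake, binding and activation, 2 of 17 genes passed in males, beside 3.52% of all genes, the share that applies to each list here. Lipc, the hepatic lipase, rose from 156 ± 8.27 to 191 ± 18.5 CPM, and Acsl4, an acyl-CoA synthetase that prefers polyunsaturated fatty acids, fell from 95.4 ± 18.1 to 74.3 ± 9.04 CPM. Their adjusted p was 0.181 and 0.217 in edgeR. Acsl4 passed in the direct test between the sexes too, with a difference of -0.58 (adjusted p 0.745 in edgeR). Of the 95 listed genes, 1 passed that test as higher and 1 as lower, beside 1.16% of all genes. Of 17 lipid droplet genes and lipases tested, 2 passed as higher in KO males: Mogat1, a monoacylglycerol acyltransferase (log2 fold change 1.35, from at most 32 reads per library), and Hsd17b11, a droplet dehydrogenase (0.24). Their adjusted p was 0.111 and 0.283 in edgeR. Of 18 fasting genes, 1 passed, Sik1, a kinase of the glucagon response, which fell from 33.0 ± 10.1 to 16.6 ± 4.04 CPM (adjusted p 0.217 in edgeR). None of 9 further acyl-CoA thioesterases tested and none of 8 receptors and coregulators passed in males by edgeR, with 1 and 2 genes at an unadjusted p under 0.05. Of the 95 listed genes 22 met that limit in males, and the share of all genes that met it is not given here.

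The receptor gene Ppara was at 136 ± 16.03 CPM in mWT and 109 ± 17.1 CPM in mKO mice (log2 fold change -0.31, unadjusted p 0.0434), and did not pass. In females it was at 108 ± 14.6 and 128 ± 34.4 CPM (log2 fold change 0.24, unadjusted p 0.106 in edgeR). Ppara did not pass the direct test of the male against the female effect either (-0.55, unadjusted p 0.0126, adjusted p 0.816 in edgeR). Its partner Rxra was at 358 ± 35.9 CPM in mWT and 360 ± 35.2 CPM in mKO mice, and Pparg, the receptor of fat cells, at 9.64 ± 2.81 and 9.91 ± 1.76 CPM.

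**Figure D5:**
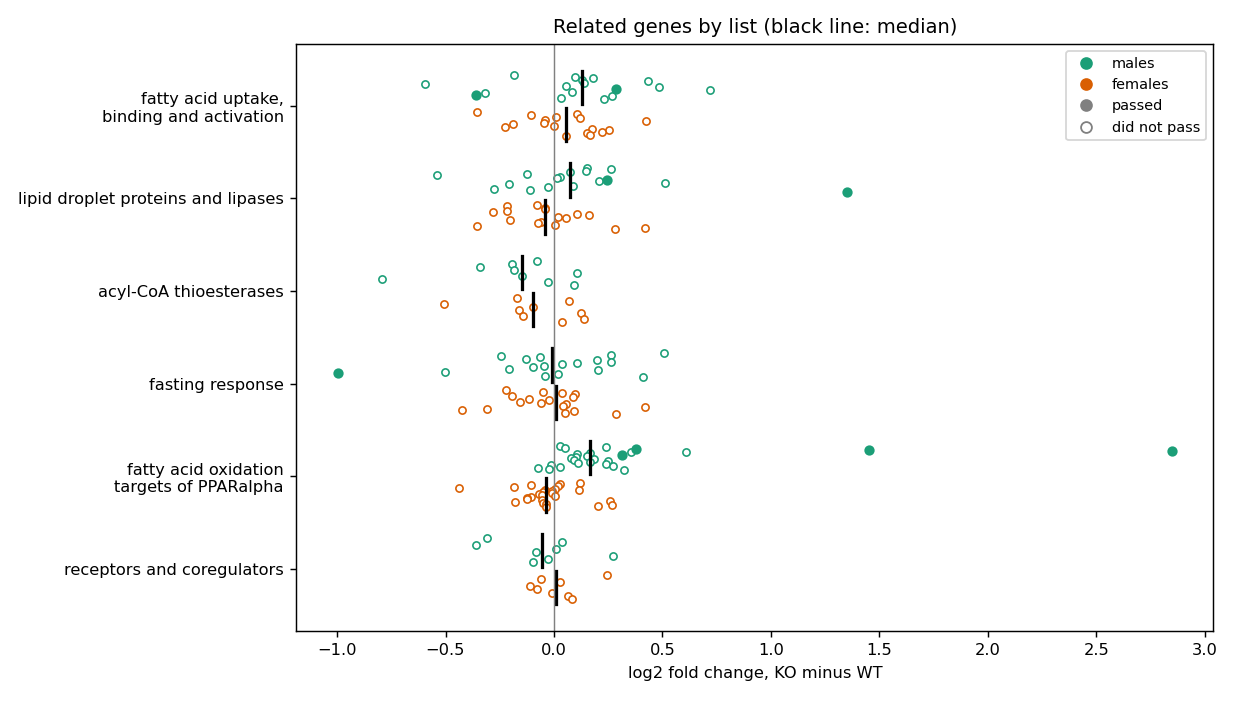
Log2 fold change between KO and WT mice of each of the 95 tested genes in 6 lists, in males and in females (points: genes, filled: unadjusted p under 0.01, black lines: list medians). The male median of the fatty acid oxidation list lies at 0.17 and the female median at -0.04, and no female point is filled.

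For each member the 2 genes were sought whose level was most like its own over all 24 mice, by the Pearson r of log2 (CPM + 2). Group means were kept here, so shared group differences and library effects count toward r, and the values are a description. The closest were Aldh3a2 (0.90) and Acadl (0.90) for Vnn1, Cyp4a10 (0.90) and Hadh (0.88) for Acot2, and Cpox (0.80) and Slc25a20 (0.80) for Acot1. Cd36 was most like Acadm (0.77) and Hmgn5 (0.74), and Plin2 most like Lonp2 (0.80) and Glo1 (0.79). The genes for Angptl4 were Lpin2 (0.87) and Pex11a (0.81), for Plin5 Cdkn1a (0.87) and Wbp1l (0.84), and for Pdk4 Lgalsl (0.85) and Pnrc1 (0.82). Fabp1 was closest to Sh3bgrl2 (0.89) and Cmas (0.82), and Cidec to Aqp4 (0.80) and Chpt1 (0.79).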

How the data were processed

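Hepatic mRNA of 24 mice (TruSeq Stranded mRNA, single-end reads of 100 bases, a single multiplex) was sequenced by the authors. Per the labels and the study's methods, fastp 0.20 did the trimming, STAR 2.7a the alignment (build GRCm38.p6) and featureCounts the counting. The deposited values are raw counts per gene, 1 file per mouse, not normalised. Annotation release, strand setting and treatment of multi-mapped reads are not given in the sources used here. Of the 25746 gene IDs, 25712 matched GENCODE M21, and 7064 genes had no count.

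Groups came from the labels. The members and lists were chosen with earlier results of these data known. The 12330 genes that reached 0.66 CPM in 6 or more libraries were fitted over all 24 libraries with edgeR 4.0.16 (TMM, quasi-likelihood test, robust, R 4.3.3) with 1 mean per group. KO comparisons and the interaction of genotype and sex were called at an unadjusted p under 0.01, the study's cut-off, and sex differences at a Benjamini-Hochberg adjusted p under 0.05 over all genes. Named genes were all members, up to 5 genes of each list per KO comparison by p, 3 per list for the sex difference in WT mice, Ppara, Pparg and Rxra, and the 2 genes most like each member. Co-variation used log2(CPM + 2) and 100000 permutations within groups. The fit was tested on simulated data. Any 2 libraries of a group differed by more than sampling noise (chi-square per gene of at least 8.07). Alternatives were DESeq2 1.42.0, its size factors, other filters, edgeR 4 deviances, the Mup genes removed, a replicate block, 1 fit per sex and leaving out each mouse. P-values measure the spread between mice of 1 line.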

Additional observations from a re-analysis of the deposited data

Results flagged for a closer look

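In the 40 sets of 6 mice (10 members in 4 groups), 3 values lay far from the rest of their group, where chance alone picks about 1 set in 20. For Cd36, mouse mWT 2 was at 52.7 CPM and the next mWT mouse at 27.2 CPM. Mouse fKO 4 was at 40.1 CPM for Cd36, with the next fKO mouse at 31.2 CPM. The same mouse was at 3.94 CPM for Acot2, with the next at 2.69 CPM.

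The KO effect differed between males and females at an unadjusted p under 0.05 in edgeR's direct test for 3 members, each larger in males: by 0.92 on the log2 scale for Cd36, by 0.46 for Plin2 and by 1.01 for Vnn1. Among all genes 5.99% did so, and no adjusted p of these 3 was under 0.05.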

How the results depend on the processing

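The number of members that passed was 2 in KO males, 0 in KO females, 1 for the interaction, 2 for the sex difference in WT mice and 3 for that in KO mice. With each sex in its own fit the male count was 1, since the p of Cd36 was 0.0318. DESeq2 gave 3 in males, with Vnn1 added, beside 524 of the 12330 genes tested. Without a filter on low counts the sex difference in WT mice passed for 1 member (Vnn1 lost) and that in KO mice for 2 (Cidec lost). Leaving out 1 mouse at a time gave 1 to 3 in males, 0 to 1 in females, 0 to 3 for the interaction, 1 to 3 and 2 to 4 for the sex differences in WT and KO mice, and 4 to 8 pairs of members that went together in place of 5 (8 without mKO 3). Over all genes the male count was 434, and 284 to 524 with 1 mouse left out. The female count was 107, and 74 to 157 with 1 mouse left out. Genes at an adjusted p under 0.05 in males numbered 26, against 139 with DESeq2, 48 with the males alone and 2 once the Mup genes were removed, and in females 11, against 18 and 12 and, without Mup genes, 0.

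The replicate number marked different animals in each group. Mice with the same number did not deviate together (males: r from -0.15 to 0.28; females: r from -0.39 to 0.21), so the samples were not taken as pairs. With the number as a replicate block the counts of members were 2, 0, 1, 1 and 2 in the order above, and the estimate of Vnn1 for the sex difference in KO mice turned to 0.053.

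Only estimates that had not passed changed sign. With 1 mouse left out, those of KO against WT females ranged from -0.316 to 0.00055 (Acot2), -0.183 to 0.114 (Angptl4), -0.295 to 0.233 (Cidec), -0.116 to 0.0138 (Fabp1), -0.0025 to 0.227 (Plin5) and -0.257 to 0.0036 (Vnn1). For males the range was -0.0126 to 0.211 (Angptl4) and for the interaction -0.0521 to 0.388 (Plin5). The sex difference ranged in WT mice from -0.203 to 0.131 (Pdk4) and -0.150 to 0.117 (Plin2), and in KO mice from -0.0480 to 0.286 (Acot1) and -0.128 to 0.194 (Vnn1). The causes were not tested. Depth limits Cidec and Acot2 most.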

Other observations

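Several relatives of the members differed between WT females and males at an adjusted p under 0.05 in edgeR. In the uptake list Vldlr, a lipoprotein receptor (2.58 on the log2 scale, female minus male), and Slc27a1, a fatty acid transporter (0.95), were higher in females, and Lpl, the lipoprotein lipase, was lower (-0.91). Of the droplet genes, Fitm1, which takes part in droplet formation, was lower in females (-2.29), at 2.49 ± 1.10 CPM in fWT and 12.1 ± 4.04 CPM in mWT mice (SD, n = 6), as was Abhd5 (-0.34). Acot3 and Acot4, thioesterase genes of the same chromosome region as Acot1 and Acot2, were higher in females by 4.07 and 1.51, with Acot3 at 128 ± 77.2 CPM in fWT and 7.66 ± 12.4 CPM in mWT mice. Vnn3, a paralogue of Vnn1, was higher by 0.72. Cyp4a14 (3.69), the peroxisomal transporter gene Abcd2 (2.56), Cyp4a10 (2.28) and the receptor gene Rxrg (0.80) were higher in females too. Of all 95 genes tested, 12 were higher and 9 lower in females, beside 17.3% of all genes in either direction.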
